A study of Mus musculus with 1087 samples.

Results

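Endothelial cluster 2, here called EC cluster 2, comprised 190 of the 1087 single cells of the series. Its members are the cells that the submitters' labels place in class EC and in cluster 2 of the clustering made without the CD27+ cells. They were compared with HC1 cluster 7, a hematopoietic class of the same clustering, inside the same embryonic day and Venus gate, and at E11.5 also with EC cluster 1. All cells came from Gata2V/+ mouse embryos, in which a Venus fluorescent reporter marks 1 Gata2 allele, bred from C57BL/6HsdJOla wild-type females and Gata2V/V males. The aorta-gonad-mesonephros region, which holds the dorsal aorta, was dissected with the trunk part of the vitelline and umbilical arteries, digested with collagenase, and sorted as single cells with antibodies to CD31, cKit and CD27. Every group carries the Kit-high label and the same reporter allele, so no group lacks the reporter. The 4 groups used were E11.5 G2VInt (intermediate Venus), E11.5 G2VLo (low Venus), E11 G2VInt and E10 G2VInt, and the CD27+ group of E11.5 has no label in this clustering. EC cluster 2 made up 19.4% of the cells of E11.5 G2VInt (54 cells, exact 95% interval 14.9 to 24.5), 26.3% of E11.5 G2VLo (22.4 to 30.5), 6.15% of E11 G2VInt (8 of 130 cells, 2.69 to 11.8) and 4 of the 87 cells of E10 G2VInt (1.27 to 11.4%). The G2VLo gate gave the remaining cells of the cluster.

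In the embryonic aorta, some endothelial cells change into blood cells that bud into the lumen as intra-aortic clusters. This step needs the transcription factors Runx1 and Gata2, and Gfi1 takes part in silencing endothelial genes. Arterial endothelium is known for Notch signalling through Dll4 and Hey factors and for the connexins Gja5 and Gja4, and venous endothelium for Nr2f2, which restrains Notch, and for Aplnr, Nrp2, Ephb4 and Flt4.

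Embryos, litters and sorts are not named in the labels. Each cluster inside a group therefore counts as 1 sample, and no test between conditions was possible. Levels are in CPM, the reads of a gene summed over the cells of a cluster and scaled to the cluster's total, with exact Poisson 95% intervals, and shares of cells with a read come from cells thinned to 100000 reads. Reads carry no molecular identifiers, and all intervals cover counting error only. The clusters were made from the same counts, so their differences are a description. At E11.5 the median EC cluster 2 cell had 2266366 reads in G2VInt and 656373 in G2VLo, against 1643763 and 418321 in HC1 cluster 7. The median mitochondrial share of reads was 3.28% and 7.22% in EC cluster 2 and 2.50% and 5.57% in HC1 cluster 7. Among cells whose sex could be read, 61.5% and 60.3% of EC cluster 2 were male, against 37.7% and 37.9% of HC1 cluster 7. The part of depth, mitochondrial share and sex in the results was not tested. Scaling by TMM factors in place of total reads raised every log2 ratio over HC1 cluster 7 by 0.15 in G2VInt and 0.22 in G2VLo.

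EC cluster 2 was checked against arterial and venous markers, since an arterial-like label had been proposed for it. The outcome depended on the comparison. Genes that mark veins were high, and the arterial connexins Gja5 and Gja4 had a median of 0 CPM per cell, which goes against the label for most of the cells. Against EC cluster 1, the other endothelial cluster, 4 of 9 measured arterial genes were at least 2-fold higher and 1 lower in G2VInt, and 3 of 8 higher and 1 lower in G2VLo. Over all measured genes 1.30% were higher and 4.00% lower in G2VInt, and 1.42% and 3.61% in G2VLo. The median log2 ratio of the arterial list over EC cluster 1 was 0.76 and 0.57, and 0.56 and 0.53 without the 4 EC cluster 2 cells with at least 1000 CPM of Gja5. Aplnr, the apelin receptor (chr2:85136225-85139923, GRCm38), had 2117 CPM in G2VInt (95% interval 2109 to 2125) and 1774 CPM in G2VLo (1765 to 1783), against 5.55 and 3.28 CPM in HC1 cluster 7. Single EC cluster 2 cells had from 1.40 to 4368 CPM of Aplnr in G2VInt, with a median of 1901, and from 0 to 4861 in G2VLo, with a median of 1636. HC1 cluster 7 cells reached at most 35.9 and 33.8 CPM, so the medians lie far apart and only a few EC cluster 2 cells overlap with HC1. Nr2f2, the vein-specifying nuclear receptor COUP-TFII, had 81.2 CPM in G2VInt and 64.2 in G2VLo, against 0.426 and 0.191. It was read in 92.6% and 84.7% of thinned EC cluster 2 cells and in 4.76% and 2.82% of HC1 cells. Nrp2, a co-receptor for VEGF-C and semaphorins, had 562 and 357.1 CPM against 3.73 and 1.75, and Flt4, the VEGF-C receptor, 324.5 and 273.5 CPM against 9.23 and 3.88. Of the 7 venous genes measured, 6 were at least 2-fold higher than in HC1 cluster 7 in both gates, where 11.1% and 11.6% of all measured genes were. Their median log2 ratio was 5.13 in G2VInt and 6.14 in G2VLo, against -0.16 and -0.19 over all measured genes. The exception was Tek, the angiopoietin receptor, with log2 ratios of 0.21 and 0.39.

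**Figure D1:**
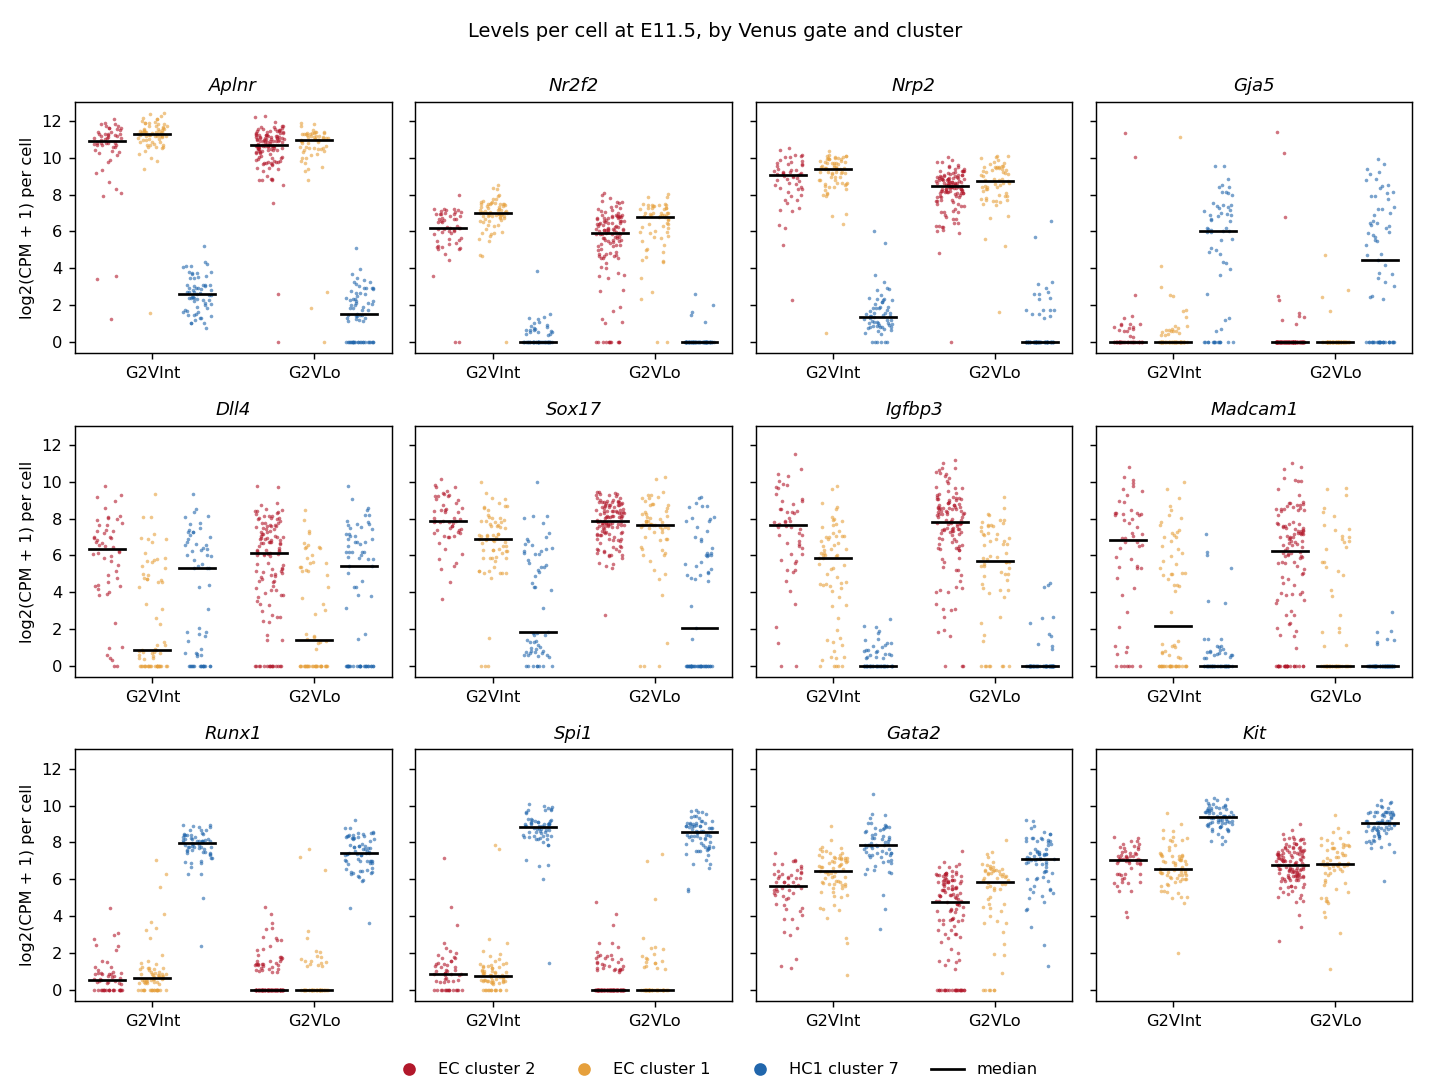
Level of 12 genes in each cell at E11.5 as log2(CPM + 1), by Venus gate, with a line at the median of EC cluster 2 (red), EC cluster 1 (orange) and HC1 cluster 7 (blue). Aplnr, Nr2f2 and Nrp2 separate the endothelial clusters from HC1 cluster 7, Gja5 lies at 0 in nearly all EC cluster 2 cells, and Igfbp3 and Madcam1 have their highest medians in EC cluster 2.

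The arterial genes did not move together at E11.5. Gja5, which encodes connexin 40 (chr3:96904693-97077416, GRCm38), was read in 3.70% of thinned EC cluster 2 cells in G2VInt and 4.03% in G2VLo, against 66.7% and 59.2% of HC1 cluster 7 cells. Its median was 0 CPM in EC cluster 2 in both gates, and 63.03 and 20.99 CPM in HC1 cluster 7. Bmx, a kinase of arterial endothelium, had 1.29 and 0.569 CPM against 53.5 and 33.9. Cxcr4, a chemokine receptor of arterial cells, had 1.42 and 1.25 CPM against 1.49 and 0.764 and did not count as measured. Sox17, an arterial and hemogenic transcription factor, had 309.1 and 275.3 CPM against 52.9 and 71.03, and was read in 98.1% and 100% of EC cluster 2 cells. Epas1, the hypoxia factor HIF-2 alpha, had 109.2 and 98.8 CPM against 41.03 and 33.5. Dll4, the arterial Notch ligand, had 127.9 and 122.8 CPM against 74.3 and 85.4, and its target Hey1 58.4 and 59.6 against 71.9 and 69.2, both within 2-fold with all cells. In G2VInt 2 cells held 51.5% of the Hey1 reads, and without them Hey1 was at 29.3 CPM, more than 2-fold below HC1 cluster 7. In all, 3 of 11 measured arterial genes were at least 2-fold higher and 2 lower in G2VInt, and 4 of 10 higher and 2 lower in G2VLo, where 13.1% and 13.4% of all measured genes were lower.

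Nearly all Gja5 reads of EC cluster 2 at E11.5 came from 4 cells, 2 in each gate, with at least 1000 CPM. The G2VInt cells had 2627 and 1056 CPM of Gja5, and the G2VLo cells 2667 and 1204. The same cells had between 2139 and 4039 CPM of Gja4, which encodes connexin 37, and between 267.6 and 1214 CPM of Hey1. Nr2f2 was at 0 in all 4, and Aplnr was between 0 and 10.9 CPM. They held 99.4% of the Gja5 reads of the cluster in G2VInt and 96.9% in G2VLo, and 86.66% and 83.03% of its Gja4 reads. Without them Gja5 had 0.314 CPM in G2VInt and 0.959 in G2VLo, and Gja4 16.98 and 9.37. Unc5b in G2VInt was 30.8 CPM without them instead of 47.1. Their Madcam1, from 623 to 1676 CPM, lay inside the range of the other cells. Igfbp3 in 1 cell of each gate, at 2856 CPM in G2VInt and 2300 in G2VLo, was above the highest other cell, at 1650 and 2042. A further E11 cell had 692 CPM of Gja5 together with 974 CPM of Aplnr and 110 CPM of Nr2f2. After thinning, no G2VInt cell of EC cluster 2 and 2 G2VLo cells had a read of both Gja5 and Nr2f2, and 50 of the 54 cells in G2VInt had Nr2f2 alone.

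**Figure D2:**
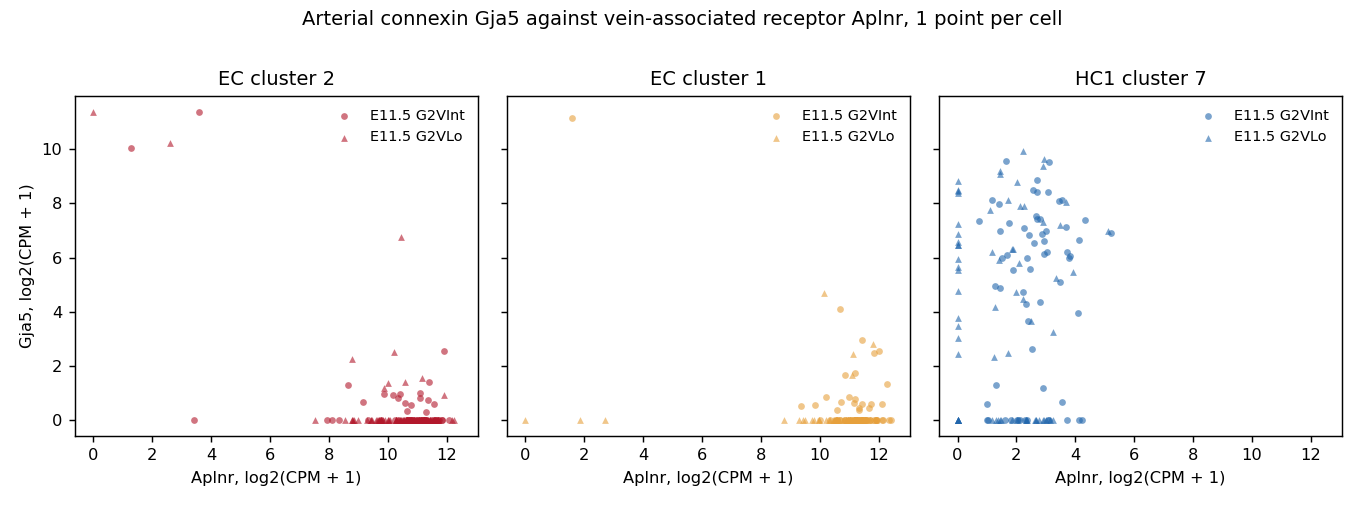
Gja5 against Aplnr as log2(CPM + 1), 1 point per cell at E11.5, in EC cluster 2, EC cluster 1 and HC1 cluster 7, with circles for G2VInt and triangles for G2VLo. The 4 cells of EC cluster 2 with at least 1000 CPM of Gja5 stand at the upper left. Nearly all of the other cells of the cluster lie at high Aplnr and near 0 Gja5.

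The remaining markers proposed for the cluster were present but uneven from cell to cell. Cdh5, the VE-cadherin of endothelial junctions, was read in 100% of thinned EC cluster 2 cells in both gates, at 297.5 CPM in G2VInt and 255.6 in G2VLo, against 157.5 and 114.9 in HC1 cluster 7. Igfbp3, which binds insulin-like growth factors, had 346.1 CPM in G2VInt (342.8 to 349.4) against 0.465, with log2 ratios of 9.54 in G2VInt and 8.61 in G2VLo. Its level in single cells ran from 0 through a median of 196.8 to 2856 CPM in G2VInt, and from 0 through 224.9 to 2300 in G2VLo. Madcam1, an adhesion molecule that binds the leukocyte integrin alpha4 beta7, had 229.2 and 201.6 CPM against 4.24 and 0.223, with medians of 112.7 and 74.8 CPM per cell. Nav3, a neuron navigator protein, had 38.6 and 29.6 CPM against 0.145 and 1.91. Ephb1, an ephrin receptor, was at 17.6 CPM in G2VInt and at 10.6 in G2VLo, and was read in 53.7% and 20.97% of the cells. Nos2, the inducible nitric oxide synthase, had 11.1 and 13.4 CPM and was read in 40.7% and 37.9% of the cells. Of these genes, Cdh5 alone was read in every thinned cell of both gates.

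Against HC1 cluster 7 the 2 clusters differed widely and alike in both gates. Of 10374 genes measured in G2VInt, 1151 (11.1%) were at least 2-fold higher in EC cluster 2 and 1359 (13.1%) at least 2-fold lower. In G2VLo the numbers were 1154 (11.6%) and 1338 (13.4%) of 9952. With TMM scaling in place of total reads, 1456 were higher and 995 lower. Measured genes are those that reached 10 CPM in 1 of the clusters and were read in 20% or more of its thinned cells. The gates shared 902 higher genes (9.17% of 9836 measured in both), which is 78.4% of those of G2VInt and 78.2% of those of G2VLo. They shared 947 lower genes (9.63%), 69.7% and 70.8% of those of each gate.

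**Figure D3:**
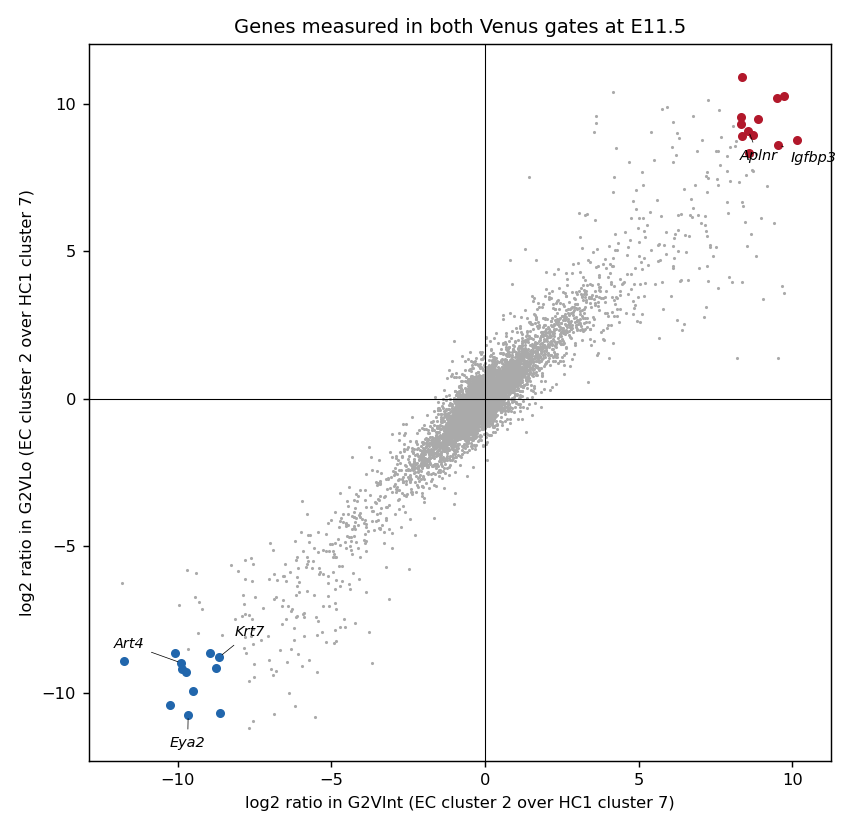
Log2 ratio of EC cluster 2 over HC1 cluster 7 in G2VInt (horizontal) and G2VLo (vertical) for each gene measured in both gates at E11.5. The 12 leading higher genes are red and the 12 leading lower genes blue, and each has a ratio beyond 8 on the log2 scale in both gates.

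The genes with the largest ratio in both gates included ion channels and matrix genes. Piezo2, a mechanically gated channel, had 170.9 CPM in G2VInt and 158.5 in G2VLo, against 0.359 and 0.223 in HC1 cluster 7, and was read in 96.3% and 99.2% of EC cluster 2 cells. Kcne3, a potassium channel subunit, had 63.4 CPM in G2VInt against 0.0872, with log2 ratios of 9.51 and 10.18. Sparcl1, a matricellular protein, had 338.8 and 342.4 CPM against 0.804 and 0.700. Colgalt2, a collagen galactosyltransferase, had 41.5 and 38.7 CPM against 0.0485 and 0.0318, the last from a single read. Kitl, the ligand of the Kit receptor, had 45.03 and 61.1 CPM against 0.116 and 0.191, while Kit itself had the opposite order, at 138.3 and 133.4 CPM against 690 and 573. EC cluster 2 cells of G2VInt had between 14.5 and 310.8 CPM of Kit, and HC1 cells between 241.2 and 1360, so the ranges overlap at their ends. In G2VLo the overlap was wider. There an EC cluster 2 cell reached 503.8 CPM of Kit. The lowest HC1 cell had at most 58.79 CPM, its sum over the mast cell and basophil list that holds Kit. Others among the leading genes were Cdkl1, Igfbp3, Aplnr, Ripply3, Gpm6a and Fam167b.

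At the other end, the leading genes of HC1 cluster 7 were nearly unread in EC cluster 2. Eya2, a transcriptional coactivator, had 0.112 and 0.0484 CPM in EC cluster 2 and 89.98 and 82.1 in HC1 cluster 7, and was read in no thinned EC cluster 2 cell of either gate. Art4, an ADP-ribosyltransferase that carries a blood group antigen, had 0.415 and 0.751 CPM against 390 and 375.5. Vipr1, the receptor for vasoactive intestinal peptide, had no read in EC cluster 2 in either gate and 20.4 and 22.3 CPM in HC1 cluster 7. With 3 reads taken as the limit of a count of 0 for the summed cluster, its log2 ratio was -9.73 or lower in G2VInt and -9.26 or lower in G2VLo. Others among them were Cldn10, Shisa8, Slc22a4, Slco4a1, Nupr1, Krt7, Ramp1 and Serpinb8.

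Promoters of 3 of these genes show what the sequence at their starts holds. Entries of the RefSeq table on a single chromosome were passed over. The printed promoters were chosen among the 3 leading genes of each direction with a remaining entry, as those with a motif match. Each is 300 bases around the transcription start of RefSeq on GRCm38.p6, written 5′ to 3′ on the gene's strand, and capitals mark the match. Kcne3 (chr7:100176420-100176719, plus strand) held the ETS letters AGGAAG on the reverse strand. Igfbp3 (chr11:7213874-7214173, minus strand) held the RUNX letters TGTGGT. Cldn10 (chr14:118787621-118787920, plus strand), a claudin of tight junctions that was lower, held the GATA letters AGATAA.
Kcne3: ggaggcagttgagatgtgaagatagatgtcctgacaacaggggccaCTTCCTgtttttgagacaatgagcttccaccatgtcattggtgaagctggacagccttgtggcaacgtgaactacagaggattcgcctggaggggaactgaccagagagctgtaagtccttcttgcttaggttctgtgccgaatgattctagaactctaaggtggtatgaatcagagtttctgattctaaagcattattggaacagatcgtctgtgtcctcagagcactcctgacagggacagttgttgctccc
Igfbp3: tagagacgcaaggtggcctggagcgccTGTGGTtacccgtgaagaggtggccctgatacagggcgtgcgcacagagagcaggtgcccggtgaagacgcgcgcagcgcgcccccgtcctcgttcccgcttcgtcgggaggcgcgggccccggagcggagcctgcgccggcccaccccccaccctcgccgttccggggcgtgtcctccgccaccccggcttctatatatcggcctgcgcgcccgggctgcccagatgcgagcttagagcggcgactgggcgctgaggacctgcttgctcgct
Cldn10: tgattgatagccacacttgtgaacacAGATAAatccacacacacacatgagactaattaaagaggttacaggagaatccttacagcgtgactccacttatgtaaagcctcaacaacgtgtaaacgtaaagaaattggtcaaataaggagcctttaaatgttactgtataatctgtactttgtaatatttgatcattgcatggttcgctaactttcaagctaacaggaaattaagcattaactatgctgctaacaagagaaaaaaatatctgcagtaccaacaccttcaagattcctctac

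Motifs were sought on both strands, and none of the 4 strings contains another. RefSeq promoters were found for 6 of the 12 leading higher genes and 10 of the 12 lower ones. TGTGGT lay in 1 of 6 higher and 1 of 10 lower promoters, against 16.9% of all 27025. AGATAA lay in 0 of 6 and 2 of 10, against 11.4% of all. AGGAAG lay in 3 of 6 and 2 of 10, against 35.1%, and the RBPJ letters GTGGGAA in 0 of 6 and 2 of 10, against 6.39%. With so few promoters these counts are a description, and a match is not a binding site.

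Genes of the endothelial to hematopoietic change were low in EC cluster 2. For this and the lists that follow, the shares over all measured genes against HC1 cluster 7 were 11.1% higher and 13.1% lower in G2VInt and 11.6% and 13.4% in G2VLo. Of 16 measured transition factors, 0 were at least 2-fold higher in either gate, and 11 were at least 2-fold lower in G2VInt and 10 in G2VLo. Their median log2 ratio was -1.99 and -2.06. Runx1, which drives the change, had 1.17 CPM in G2VInt and 1.26 in G2VLo, against 258.5 and 200. It was read in 9.26% and 7.26% of thinned EC cluster 2 cells and in 100% of HC1 cells. Gfi1 had 0.415 and 0.0727 CPM against 84.99 and 55.7, and Gfi1b, its relative, 0.168 and 0.0969 against 37.6 and 26.5. Spi1, the myeloid factor PU.1, had 3.78 and 0.812 CPM against 496 and 382.1. Gata2, whose reporter set the gates, was lower but present, at 55.3 and 34.7 CPM against 290 and 165.6, and was read in 90.7% and 70.2% of EC cluster 2 cells. Tal1 and Lyl1, its partners, had 28.2 and 122.3 CPM in G2VInt against 78.6 and 367.9. Fli1, Erg, Lmo2 and Cbfb, which endothelium and blood share, had log2 ratios between -0.28 and 0.41 over both gates.

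Other blood genes followed the same order. Of the pan-hematopoietic list, 15 of 16 measured genes in G2VInt and 14 of 15 in G2VLo were at least 2-fold lower, with median log2 ratios of -5.87 and -6.67, while Lcp1 had 290 and 247.2 CPM against 179.4 and 169.4. Ptprc, the leukocyte antigen CD45, had 0.583 and 0.351 CPM against 91.5 and 101.4. Of 21 genes tied to hematopoietic stem cells, 16 were lower and 1 higher in G2VInt, and 15 lower and 0 higher in G2VLo. Among them were Adgrg1, the adhesion receptor GPR56, at 19.6 and 7.91 CPM against 1561 and 1163, and Procr, the protein C receptor, at 49.3 and 21.3 against 531 and 454.3. Mecom, the factor Evi1, had 54.6 CPM against 231.1 in G2VInt, with log2 ratios of -2.08 and -2.17. Cd27 had 1.54 and 0.775 CPM against 76.2 and 41.7. The megakaryocyte and myeloid granule lists have 12 members each, not all of them measured. The measured megakaryocyte genes (6 of 6 in G2VInt, 5 of 5 in G2VLo) and myeloid granule genes (6 of 6 and 4 of 4) were at least 2-fold lower. The myeloid granule list summed to 17.96 and 10.21 CPM against 637.9 and 606.7. Its genes thus passed the filter mainly through HC1 cluster 7, which largely fixed their direction. The megakaryocyte list, at 57.90 and 46.69 CPM against 859.8 and 666.5, has the same limit. So has much of the pan-hematopoietic list, where 8 of 18 members in G2VInt and 9 in G2VLo were under 1 CPM in EC cluster 2. In either direction, a list gene near 0 in 1 cluster could be measured only through the other.

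Of 6 genes, Runx1, Gfi1, Spi1, Myb, Ptprc and Spn, 68.5% of thinned EC cluster 2 cells in G2VInt and 75.0% in G2VLo had a read of none, and no HC1 cell in either gate lacked all. A single G2VInt cell of EC cluster 2 had reads of all 6, with 20.8 CPM of Runx1, 139.2 of Spi1, 43.97 of Myb and 23.2 of Ptprc. That cell also had 1777 CPM of Aplnr, 20.8 of Nr2f2 and 466.8 of Adgrg1, and whether it is a doublet was not tested. It held 60.8% of the Spi1 reads and 84.6% of the Gfi1 reads of the cluster in G2VInt. After thinning, no other EC cluster 2 cell had reads of more than 2 of the 6. With all reads some other cells had a few reads of more of them.

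Guidance genes, vascular receptors and matrix genes had many members on the higher side. Of the guidance list, 15 of 21 measured genes in G2VInt and 15 of 19 in G2VLo were at least 2-fold higher, with medians of 2.30 and 2.41. Sema6d, a semaphorin, had 132.4 CPM in G2VInt against 5.95. Robo1, a Slit receptor, had 37.96 and 33.8 against 4.21 and 3.12, and Plxnd1, a semaphorin receptor of endothelium, 717 and 529 against 139.4 and 88.1. Kdr, the main VEGF receptor, had 847 and 602 CPM against 118.1 and 106.2, and Flt1, the VEGF decoy receptor, 297.9 and 268.4 against 72.7 and 69.3. Of 26 pan-endothelial genes, 11 were higher and 1 lower in G2VInt, and 10 and 1 in G2VLo. The lower one was Calcrl, the adrenomedullin receptor, at 111.7 and 93.7 CPM against 395.3 and 411.5. Pecam1, the sorted antigen CD31, had 914 and 807 CPM against 540 and 489. Over EC cluster 1, 1.30% of all measured genes were higher and 4.00% lower in G2VInt, and 1.42% and 3.61% in G2VLo. There 3 of 23 guidance genes were higher and 4 lower in G2VInt, and 5 of 20 and 2 in G2VLo. The matrix list gave 4 of 25 and 7, and 4 of 21 and 2. Of 26 pan-endothelial genes 0 were higher, and 3 and 2 lower. Most of these genes were thus not particular to EC cluster 2.

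Of the basement membrane and matrix list, 13 of 23 measured genes in G2VInt and 13 of 22 in G2VLo were higher than in HC1 cluster 7. Lower were 4 and 3. Lama4, an endothelial laminin chain, had 396.9 and 340 CPM against 16.97 and 6.78, and Col15a1, a basement membrane collagen, 68.4 and 58.5 against 0.271 and 0.159. Cav1, the coat protein of caveolae, had log2 ratios of 8.41 and 6.53. Stab1 and Stab2, scavenger receptors of sinusoidal and embryonic endothelium, had 736 and 114.6 CPM in G2VInt against 6.97 and 0.320. Snai1 and Snai2, repressors of epithelial junctions, had 37.9 and 34.9 CPM in G2VInt against 0.116 and 0.0775. In contrast, Acta2, smooth muscle actin, had 1.86 and 2.93 CPM in EC cluster 2 against 422.7 and 370. Leukocyte adhesion genes split, with 7 of 16 higher and 6 lower in G2VInt, and 6 of 16 each way in G2VLo. On the lower side were Selplg, the P-selectin ligand, at 0.247 and 0.266 CPM against 58.6 and 43.9, and Itgb3, the beta3 integrin, with log2 ratios of -7.48 and -6.72.

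Signalling lists were mixed. In the BMP and TGF-beta list 11 of 22 measured genes were higher and 3 lower in G2VInt, and 10 and 2 of 21 in G2VLo. Bmp4, a ligand, had 67.4 and 47.5 CPM against 2.06 and 3.18, the transducer Smad1 88.8 and 96.4 against 8.85 and 14.5, and the target Id3 381.4 and 448.1 against 110 and 114.5. Bmper, which binds BMPs, had 0.0479 and 0.424 CPM against 39.7 and 24.1. In the Notch list 6 of 18 were higher and 3 lower in G2VInt, and 5 and 3 in G2VLo, with medians of 0.15 and 0.01. Its ligand Dll1 had 30.9 and 22.4 CPM against 0.165 and 0.127, and its receptor Notch4 140.7 in G2VInt against 28.8, while Notch2 had 5.80 in G2VInt against 19.9. Interferon genes were lower, 11 of 15 in G2VInt and 9 of 13 in G2VLo, and Nos2 was the 1 higher member in each gate. Glycolysis genes gave 3 higher and 2 lower of 19 in G2VInt and 3 and 3 in G2VLo, near the shares over all measured genes, as was the lower side of the Notch list.

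**Figure D4:**
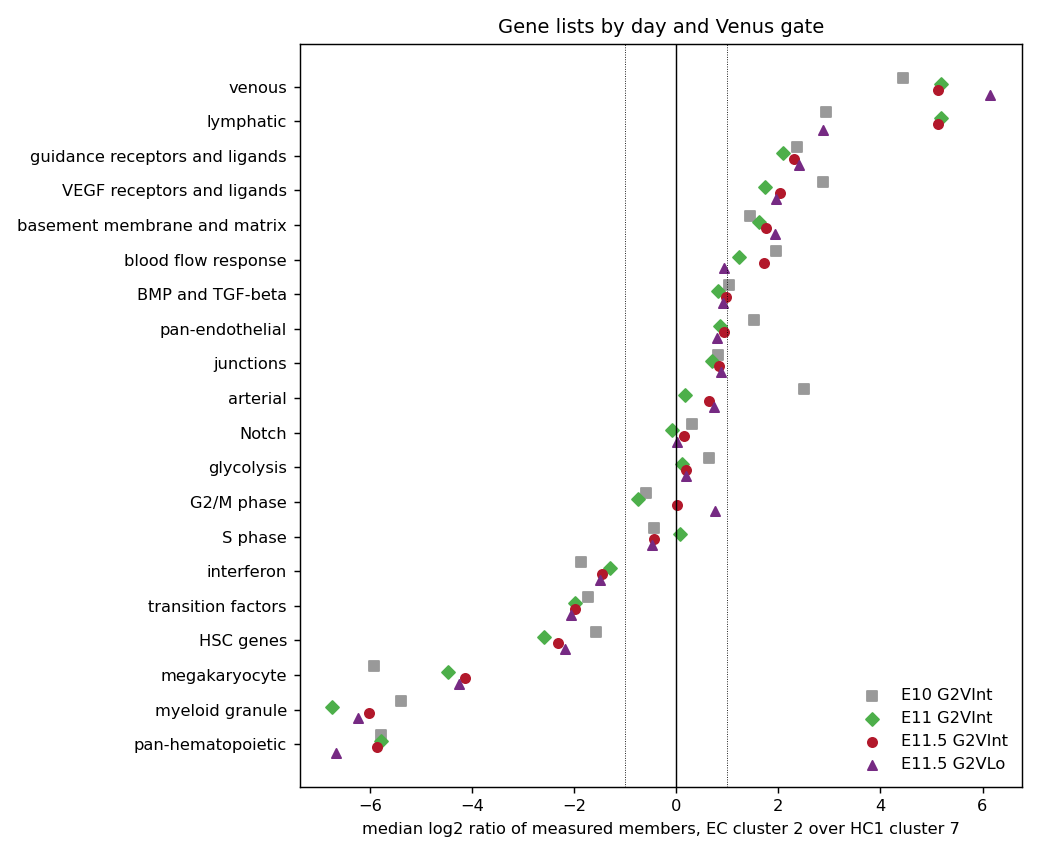
Median log2 ratio of the measured members of 20 gene lists, EC cluster 2 over HC1 cluster 7, in the 4 groups, with dotted lines at 2-fold in each direction. Venous genes lie near 5 or above and pan-hematopoietic genes below -5 in each group, with E10 venous genes at 4.44, and G2/M genes change sign between groups.

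Proliferation genes gave a group-dependent order. All 40 genes of the G2/M list were measured, and their median log2 ratio was 0.01 in E11.5 G2VInt and 0.76 in E11.5 G2VLo. In G2VLo 14 were at least 2-fold higher and 0 lower, and in G2VInt 0 either way. Top2a, a topoisomerase of dividing cells, had 361.8 CPM in EC cluster 2 against 166.9 in HC1 cluster 7 in G2VLo, and log2 ratios of -0.20 in G2VInt and 1.12 in G2VLo. The summed G2/M level per cell had a median of 6258 CPM in EC cluster 2 cells of G2VInt, with a highest cell at 15762, and a median of 5035 CPM in G2VLo, with a highest cell at 18439. Of 36 S-phase genes, 1 was at least 2-fold lower and 0 higher in each gate. Their median log2 ratio was -0.446 in G2VInt and -0.472 in G2VLo, against -0.159 and -0.187 over all measured genes. Only 1 of the 36 had a positive ratio in G2VInt and 4 in G2VLo, so most lay slightly lower in EC cluster 2 at E11.5. This order also depended on the group. At E11, 22 of the 36 were positive, 3 at least 2-fold higher and 0 lower, with a median of 0.080. At E10, 4 were positive, with a median of -0.428.

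EC cluster 1 is the endothelial cluster most like EC cluster 2, and far fewer genes separated them. In G2VInt, 1.30% of 9874 measured genes were at least 2-fold higher in EC cluster 2 and 4.00% lower. In G2VLo, 1.42% of 9579 were higher and 3.61% lower. Both gates shared 53 higher genes, 0.563% of the 9411 measured in both, and 2.09% were lower in both. Of the 7 markers, 6 were higher than in EC cluster 1 in both gates, and Cdh5 had log2 ratios of -0.13 and -0.05. Unc5b, a netrin receptor of arteries and tip cells, had 47.1 and 45.8 CPM against 5.45 and 6.32. Dll4 had 127.9 and 122.8 CPM against 32.4 and 32.8, and Hey1 58.4 and 59.6 against 14.1 and 8.84. The Hey1 value of G2VInt was 29.3 CPM without the 4 Gja5 cells. Kcna5, a potassium channel, had 26.5 and 24.3 CPM against 6.16 and 3.11, and Prdm1, the repressor Blimp1, 18.7 and 31.6 against 2.05 and 4.94. Nos2, Btnl9 and Vwa1 completed the 8 leading higher genes, and Btnl9 was read in 24.1% and Vwa1 in 25.9% of EC cluster 2 cells of G2VInt.

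The venous genes did not separate the endothelial clusters by 2-fold: 0 of 7 were higher or lower in either gate. Their median log2 ratio was nevertheless below 0, at -0.68 in G2VInt and -0.495 in G2VLo, with 1 of 7 members positive in each, while the arterial list had the positive medians given above. Among cells that both clusterings place in the cluster of the same number, Ephb4, the ephrin receptor of veins, had 279.8 CPM against 595.4 in G2VInt, past 2-fold, and 184.3 against 357.5 in G2VLo. Nr2f2 had 131.7 and 103.9 CPM in EC cluster 1, with log2 ratios of -0.70 and -0.69, and Aplnr had ratios of -0.34 and -0.09. Vwf, von Willebrand factor, had 36.3 and 23.8 CPM in EC cluster 2 against 468.2 and 294.5. Calcrl had 111.7 and 93.7 against 433.9 and 296.1, and Procr 49.3 and 21.3 against 195.2 and 137.3. Bmp4 had 47.5 CPM against 246.3 in G2VLo, and a log2 ratio of -1.56 in G2VInt. Slfn2, a growth regulator of lymphocytes, had 0.790 and 0.291 CPM against 33.7 and 23.2, and Fmo1, a monooxygenase, 8.54 and 7.78 against 120.6 and 122.8. The other leading lower genes were P4ha3, Adgrg6, Ocln, Adrb1 and Adamts18. Flt4 was the one venous gene above EC cluster 1 in both gates, by log2 ratios of 0.95 and 0.97. Prox1, the lymphatic regulator, had 112.5 and 37.1 CPM against 42.3 and 12.7, with 66.7% and 46.8% of EC cluster 2 cells holding a read. EC cluster 1 also held a G2VInt cell with 2264 CPM of Gja5, and its Gja5 sum in that gate was 37.95 CPM.

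**Figure D5:**
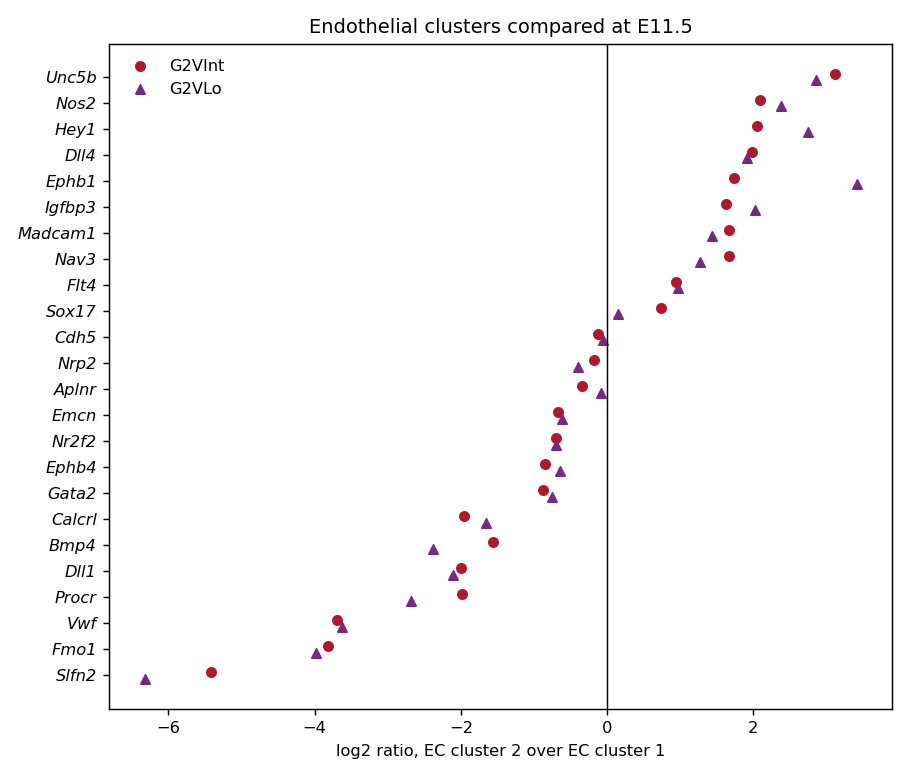
Log2 ratio of EC cluster 2 over EC cluster 1 for 24 genes at E11.5, with circles for G2VInt and triangles for G2VLo. Unc5b, Nos2, Hey1 and Dll4 lie to the right in both gates, Vwf, Fmo1 and Slfn2 to the left, and Aplnr and Cdh5 near 0.

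The authors' other clustering, of all cells, split EC cluster 2. Of the 190 cells it placed 31 in cluster 1, 4 in cluster 4, 1 in cluster 9 and the rest in cluster 2, and 9 CD27+ cells also lay in its cluster 2. In G2VInt the 38 cells placed in cluster 2 by both had 82.1 CPM of Hey1 and 164.2 of Dll4, and the 15 cells that it placed in cluster 1 had 3.44 and 53.4. In G2VLo, where 16 cells lay in its cluster 1, Hey1 had 68.4 and 4.80 CPM and Dll4 131.6 and 74.8. Aplnr ran the other way, at 1666 and 3020 CPM in G2VInt and 1692 and 2379 in G2VLo. Nav3 had 39.05 and 39.55 CPM in G2VInt. Vwf had 36.5 and 37.7 CPM there, against 564.5 in the 55 cells that both clusterings place in cluster 1. Across EC cluster 2 cells of 1 gate, Spearman's rho of thinned counts between Hey1 and Dll4 was 0.50 in G2VInt (54 cells) and 0.48 in all G2VLo cells of the cluster, and between Hey1 and Aplnr -0.36 and -0.32. Cells of a cluster count as 1 sample and their embryos are not named, so these values are a description.

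EC cluster 2 at the earlier days rests on 8 and 4 cells. The clustering of all cells placed most of the HC1 cluster 7 cells of E10 in its cluster 8. At E11, 1409 of 10569 measured genes (13.3%) were at least 2-fold higher than in HC1 cluster 7 and 1928 (18.2%) lower, and at E10, 1495 of 10258 (14.6%) and 2086 (20.3%). Of the 902 genes higher in both gates of E11.5, 807 were also at least 2-fold higher at E11 and 748 at E10. Of the 947 lower genes, 804 and 718 were also lower. Of the arterial list at E10, 8 of 11 measured genes were at least 2-fold higher than in HC1 cluster 7 and 1 lower. Their median log2 ratio was 2.50, and 4 of the 16 members of the list had no read in EC cluster 2. At E11, 3 of 12 measured arterial genes were higher and 3 lower, with a median of 0.16. Aplnr had 1748 CPM at E11 and 1251 at E10, against 1.25 and 2.07, and Nr2f2 89.4 and 27.04 against 0.0453 and 0.154. Runx1 had 0.912 CPM at E11 against 290.7, and 0.653 at E10. Madcam1 had 378.9 CPM at E11 and 14.2 at E10, Nos2 8.34 and 2.48, and Ephb1 7.17 and 0, while Igfbp3 had 403.6 and 438.5. Days and gates have library numbers in separate ranges, so day, gate and number range cannot be told apart.

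Among other cell types that the dissected tissue could hold, most markers of macrophages, mesenchyme, renal epithelium, gonad and mesothelium were near the floor in EC cluster 2. In G2VInt, 9 of 12 macrophage genes, 9 of 12 mesenchymal genes, 10 of 10 renal epithelial genes and 8 of 10 gonadal and mesothelial genes were under 1 CPM. The summed level of these lists was 50.1, 18.7, 1.36 and 36.7 CPM in EC cluster 2 and 43.9, 14.2, 199.1 and 2.44 in HC1 cluster 7. Of the erythroid list 7 of 14 genes were under 1 CPM, with a sum of 90.5 CPM against 549.7 in HC1 cluster 7. Other lists summed higher in G2VInt. The lymphoid list had 440.9 CPM against 180.2, and the neural list 234.9 against 34.5, with 6 of its 10 genes under 1 CPM. Of the lymphoid list, 3 of 5 measured genes were at least 2-fold higher than in HC1 cluster 7 and 2 lower in G2VInt, and 2 of 4 higher and 1 lower in G2VLo. Among genes outside their usual lineage, those high in EC cluster 2 included Lck, a lymphocyte kinase, at 160 and 127.2 CPM against 26.3 and 17.4, Ebf1, a B-cell factor, at 34.3 and 38.8 against 1.14 and 0.286, and Nes, an intermediate filament of neural and vascular progenitors. Lck was read in 100% and 91.9% of EC cluster 2 cells. In G2VInt the neural and lymphoid sums of EC cluster 1 were also above those of HC1 cluster 7, at 240.6 and 309.7 CPM. The neural sum there was slightly above that of EC cluster 2, and the lymphoid sum below it. In G2VLo both sums were higher in EC cluster 2 than in EC cluster 1. Over EC cluster 1, 1 of 4 measured lymphoid genes was at least 2-fold higher in G2VInt and 1 of 3 in G2VLo.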

How the data were processed

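Single-cell RNA-seq of sorted mouse cells was deposited as a table of raw read counts per Ensembl gene, 1 column per cell. Per the submitters' processing notes, the authors counted reads with HTSeq 0.6.0 on GRCm38, and per the labels' protocols libraries were made with Nextera XT and run on a HiSeq 2500. The aligner, annotation release, strand setting and cell filters are not given in the sources used here. Of 1087 columns, 525 were used (clusters 2 and 7 in 4 groups, cluster 1 at E11.5) and the other 562 were not used here. Symbols for 45143 of 46078 genes came from GENCODE, and genes without one held 0.0901% of reads.

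Counts were summed by cluster and group and scaled to CPM. Shares used cells thinned at random to 100000 reads, and the shallowest cell had 117369. A gene was measured with at least 10 CPM in 1 cluster and a read in at least 20% of thinned cells of the higher, and called at 2-fold. A sum of 0 was set to 3 reads for ratios. No test was possible, since no label names an animal, litter or sort, and each cluster in a group counts as 1 sample. Genes were named by rule: the 12 highest and 12 lowest by the smaller log2 ratio of both E11.5 gates against HC1 cluster 7, and 8 and 8 against EC cluster 1, at least 1.5-fold in the same direction by mean of cells and in each part of the library numbers; leading members of 35 lists; the 7 markers; and Gata2, Kit, Cd27 and Pecam1. Other named genes (among them Robo1, Plxnd1, Lcp1, Tal1, Lyl1, Ptprc, Procr, Mecom, Calcrl, Top2a, Id3 and Stab1) were chosen after their values were seen. Some of the genes that the rule names are not reported here. The members and lists were chosen with earlier results of these data known. Doublets were not called. The code was tested on simulated data. Python 3.11.15, numpy 2.4.6, scipy 1.17.1 and edgeR 4.0.16 (TMM factors only) were used.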

Additional observations from a re-analysis of the deposited data

Results flagged for a closer look

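The G2/M list changed sign between groups. Its median log2 ratio of EC cluster 2 over HC1 cluster 7 was 0.757 in E11.5 G2VLo and 0.009 in E11.5 G2VInt, and -0.748 in E11 G2VInt and -0.589 in E10 G2VInt. In HC1 cluster 7 the summed level of the 40 genes was 3534 CPM in E11.5 G2VLo, 6353 in E11.5 G2VInt and 9185 at E11, and in EC cluster 2 it was 5915, 6470 and 5617 CPM. Each group is 1 sample of each cluster, and the difference between groups was not tested.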

How the results depend on the processing

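Under TMM scaling, the mean of per-cell CPM and without the 4 cells of at least 1000 CPM of Gja5 (chosen after seeing the data), all 8 counts of genes past 2-fold at E11.5 stayed within 1.5 times. With at least 1 CPM and no share filter, which lets in more genes, 14.7% of genes were higher and 18.2% lower than in HC1 cluster 7 in G2VInt, and 15.2% and 19.3% in G2VLo. Against EC cluster 1 that filter gave 4.27% and 8.94% in G2VInt and 4.73% and 9.62% in G2VLo. The share higher than in EC cluster 1 depended on the cells taken. In G2VInt it was 1.95% for the lower library numbers, 2.28% for the upper ones and 2.66% for cells that both clusterings place in the cluster of the same number, against 1.30% with all cells. In G2VLo it was 2.88% for the lower library numbers and 2.52% for cells placed alike, against 1.42%, and the cause was not tested. TMM scaling moves all ratios alike and the filter leaves a gene's ratio as it is. Of 1410 values of named gene ratios past 2-fold under the other 5 settings, 1409 kept their direction, which the naming rule fixed in part, since it asked for 1 direction by mean of cells and in each part of the library numbers. The exception was Cd27 in G2VInt against EC cluster 1, with a log2 ratio of -2.12, and 1.00 for the lower library numbers. Among list medians past 2-fold, all alternative values but 2 kept their direction. In G2VInt against HC1 cluster 7, the mesenchymal transition list (1.55) went to -0.026 and the lymphoid list (1.19) to -0.023 with no share filter. No paired analysis was possible because embryos and litters are not named in the labels, and no number in them pairs cells across clusters or groups. The median EC cluster 2 cell had fewer reads in G2VLo than in the other groups, and E11 and E10 are limited by their 8 and 4 cells.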

Other observations

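Immediate early genes, which tissue dissociation can raise, are a group that the text above leaves out. Against HC1 cluster 7, 6 of 12 measured members were at least 2-fold higher in EC cluster 2 and 1 lower in G2VInt, and 2 and 1 of 12 in G2VLo, with medians of 0.72 and 0.00. Atf3 had 52.9 and 121.4 CPM against 0.698 and 19.2, and Myc 185.5 and 166.4 against 39.3 and 61.8, while Ier3 had 18.7 and 26.4 against 60.3 and 82.8. Against EC cluster 1 the medians were -0.86 and -0.71.

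Among genes of lipid and sugar uptake, Cd36, a fatty acid transporter, had 46.9 and 33.9 CPM in EC cluster 2 against 0.242 and 0.223 in HC1 cluster 7, and 101.7 and 71.5 in EC cluster 1. Gpihbp1, which anchors lipoprotein lipase on capillaries, had 22.5 and 29.1 CPM in EC cluster 2 and 10.9 and 17.0 in EC cluster 1. Slc16a3, a lactate transporter, had 54.1 and 45.3 CPM against 3.09 and 4.14 in HC1 cluster 7, and Slc2a3, a glucose transporter, 6.43 and 6.75 against 46.3 and 39.9.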
